A study of Mus musculus with 3 samples.

Results

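Arg1, Retnla, Chil3, Rnase2a, Ear2, Mrc1, Cd38, Il4ra, Emilin1 and Il13ra1 were followed through 3 stages of mouse glioblastoma (GBM) by single-cell RNA sequencing. These 10 of 50262 measured genes were listed by name, under the heading of arginase, resistin-like and alternative activation genes. The heading does not show that each of them marks alternative activation, and Cd38 and Emilin1 are not among the markers named below. The 10 genes were chosen with their levels by stage and myeloid class in CD45+ cells, and their co-expression with Spp1, already known. Those values are therefore given as a description, with no test. Alternative activation is the state that macrophages enter when interleukin-4 or interleukin-13 binds a receptor that pairs the Il4ra chain with Il2rg or with Il13ra1, and STAT6 is phosphorylated. The state is marked in mice by arginase 1, which splits arginine into ornithine and urea, by secreted proteins such as RELMα and Ym1, and by the mannose receptor. It is known from parasite infection, wound repair and many tumors, where arginine use by myeloid cells can restrain T cells.

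The tumors arose in mice whose alleles included a conditional human EGFR transgene, deletion of Cdkn2a (Cdkn2a-/-) and a conditional luciferase reporter. Their strain background was mixed (129S4, Balb/cJ, C57Bl/6J, FVBN/J and SJL). Tumors were started in adult animals by a Cre lentivirus injected into the striatum, so recombination began in the infected cells, and the same alleles and virus were common to every stage. Viable CD45+ leukocytes and CD45- cells were sorted from an early, a medium and a large tumor sample, and each sort was encapsulated in 4 inDrop libraries spread over 3 sequencing runs. In the deposited annotation the 4 libraries of a stage and sort carry the same sample number and differ by a letter, so each stage was taken as 1 tumor sample with technical libraries, and a difference between stages has no replicate check. Early samples were pooled from mice.

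The kept cells numbered 11170 in the CD45+ sort (5092 early, 3973 medium and 2105 large) and 6585 in the CD45- sort. CD45+ libraries held 17 to 1751 cells and 62320 to 4229807 unique molecular identifiers (UMIs, 1 per captured mRNA). Libraries 1 and 2 of the large stage, both of run 1, were the smallest, with 17 and 91 cells. Ptprc, which encodes CD45, stood at 228 to 249 UMIs per 1000000 (CPM) in the CD45+ sort and at 3.61 to 16.0 CPM in the CD45- sort. Barcodes recurred between libraries of the same stage and sort in 2095 of 17755 cells (11.8%), among them 748 of 3973 medium CD45+ cells (18.8%). Of the 329 barcodes that recurred there, 283 (86.0%) fell in 1 class, so results are also given without these cells. CD45+ cells were clustered without the 10 genes and without Spp1, and 9493 of them were given to 5 myeloid classes by markers. In the CD45+ sort, microglia-like cells made up 78.5% of early, 19.8% of medium and 47.1% of large cells, and macrophage or monocyte-like cells 5.26%, 42.5% and 34.2%.

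Promoters are shown for Retnla, Chil3, Rnase2a and Ear2, the secreted effectors of the group, because their levels varied steeply between stages or classes and because the last 2 are close relatives. The table of RefSeq promoters used here (GRCm38.p6) matched 9 of the 10 genes, all but Arg1. Each line gives bases upstream of the start, 5′ to 3′ on the gene's strand, outside the annotated gene. For Retnla (chr16:48842359-48842550, plus strand) the capitals mark TTCNNNNGAA, a spacing known for STAT6 binding, 145 bases before the RefSeq start. For Chil3 (chr3:106167565-106167814, minus strand) they mark TTCNNNGAA, the shorter spacing known for other STAT proteins, 172 bases before the start.
Retnla: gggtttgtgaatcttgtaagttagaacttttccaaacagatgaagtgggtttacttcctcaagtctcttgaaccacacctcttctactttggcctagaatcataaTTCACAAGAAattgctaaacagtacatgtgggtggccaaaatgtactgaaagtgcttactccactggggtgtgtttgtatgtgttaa
Chil3: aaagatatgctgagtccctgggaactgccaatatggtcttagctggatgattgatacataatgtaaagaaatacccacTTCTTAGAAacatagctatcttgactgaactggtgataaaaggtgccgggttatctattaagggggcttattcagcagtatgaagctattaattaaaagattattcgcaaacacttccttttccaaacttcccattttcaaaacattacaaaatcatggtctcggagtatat
Both motifs read the same on either strand and do not overlap in these windows. TTCNNNNGAA was in the 250 upstream bases of 1826 of 27025 promoters (6.76%), and of the 9 genes with a promoter Retnla alone had it. TTCNNNGAA was in 2197 (8.13%), and of those 9 genes Chil3 alone had it. For Rnase2a (chr14:51256113-51256362, minus strand) and Ear2 (chr14:44102404-44102653, plus strand), both on chromosome 14, the capitals mark the longest run of bases that both hold, 25 in all.
Rnase2a: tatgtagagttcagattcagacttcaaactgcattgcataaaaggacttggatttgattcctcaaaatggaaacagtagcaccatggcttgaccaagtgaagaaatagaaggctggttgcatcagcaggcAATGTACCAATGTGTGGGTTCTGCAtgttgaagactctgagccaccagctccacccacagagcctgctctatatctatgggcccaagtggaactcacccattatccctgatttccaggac
Ear2: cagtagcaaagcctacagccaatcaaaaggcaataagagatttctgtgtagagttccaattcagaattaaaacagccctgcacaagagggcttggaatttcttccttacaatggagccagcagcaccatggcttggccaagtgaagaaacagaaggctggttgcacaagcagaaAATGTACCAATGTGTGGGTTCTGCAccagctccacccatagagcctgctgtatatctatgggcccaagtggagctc
Of 225 aligned columns of these windows, 178 (79.1%) were identical. The transcripts were alike as well, with 81.0% identity between Ear2 and Rnase2a, 96.2% between Ear2 and Ear1, 94.5% between Ear2 and Ear10, 94.3% between Chil3 and Chil4 and 82.8% between Retnla and Retnlg. Counts of Ear2 and Chil3 are therefore uncertain, since reads may have been split between near-identical copies.

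Arg1 encodes arginase 1 and lies on chromosome 10 (GRCm38, chr10:24915221-24927484, minus strand). In CD45+ libraries 1 to 4, Arg1 stood at 0, 0.473, 1.04 and 0 CPM in the early stage. The medium libraries held 13.8, 11.7, 26.2 and 2.69 CPM, and the large libraries 289, 439, 263 and 236 CPM. Each large library lay above each medium library. Medium libraries 1 to 3 lay above the early ones, while early library 1, with no UMI among 361976, allows up to 8.29 CPM, so medium library 4 is not shown to lie above it. Summed over libraries, Arg1 was at 0.462, 13 and 258 CPM (5, 126 and 1387 UMIs), a large-to-early ratio of 559-fold (95% exact interval 239 to 1724). Intervals here and below cover counting error only, and in these sums fewer cells of a type and less RNA per cell cannot be told apart. The 5 early UMIs lay in 2 cells, 3 of them in 1 cell of library 3. In the medium stage the 126 UMIs came from 26 of 3973 cells, and 10 cells held 75.4% of them. In the large stage 270 of 2105 cells held a UMI, and 10 cells held 26.1%.

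Retnla encodes RELMα, also called Fizz1, a secreted resistin-like protein. Its early libraries held 16.6, 5.2, 17.7 and 22.5 CPM and its medium libraries 3.13, 17.4, 3.46 and 2.69 CPM. In the large stage libraries 3 and 4 held 649 and 555 CPM, library 2 held 322 CPM, and the 17-cell library 1 held 48.1 CPM from 3 UMIs. Early and medium libraries overlapped, and large libraries 2 to 4 were above them, while the 3 UMIs of library 1 do not place it. The sums were 14.2, 8.77 and 579 CPM, with a large-to-early ratio of 40.7-fold (34.6 to 48.2). The ratio differed between runs, at a log2 value of 3.92 within run 1 and 6.93 within run 2, against 5.34 over all libraries. The early side of each rests on 1 cell, with 6 UMIs in run 1 and 22 UMIs in run 2. Few cells carried the gene: 8 of 5092 early cells, 9 of 3973 medium cells and 225 of 2105 large cells, whose highest cell held 304 UMIs.

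Chil3 encodes Ym1, a secreted chitinase-like lectin of macrophages and neutrophils, and it followed another course. The early libraries held 108, 63.6, 5.2 and 13.8 CPM, the medium libraries 1153, 548, 873 and 764 CPM. The large libraries held 1171, 30.3, 67.9 and 90.7 CPM. The value of the first came from 73 UMIs of a single cell. Medium libraries lay above all early ones, and large libraries overlapped both. The sums were 34.1, 765 and 90.2 CPM, so Chil3 was 22.4-fold higher in the medium than in the early stage (20.2 to 25) and 2.64-fold higher in the large stage (2.30 to 3.03). Early library 2 held 269 of the 369 early Chil3 UMIs, 146 of them in 1 cell, and without it the medium-to-early ratio was 50.4-fold (41.4 to 62.0). The large-to-early ratio of Chil3 was unstable too. Its log2 value was 1.40 over all libraries, 0.10 within run 2, 3.20 within run 3 and 2.56 without early library 2.

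Rnase2a and Ear2 encode eosinophil-associated ribonucleases, which are secreted RNases of eosinophils and macrophages. Rnase2a had 3 UMIs in the whole early CD45+ sort (0.277 CPM) and 22 in the medium sort (2.27 CPM). Its large libraries held 16.0, 159, 198 and 189 CPM, the first from 1 UMI, and 1017 UMIs in all (189 CPM). The ratio of the large to the early count was 683-fold, with a counting interval of 233 to 3318. Of the 3 early UMIs behind it, 2 lay in 1 cell of library 3. Ear2 had early libraries at 11.1, 7.09, 5.89 and 9.59 CPM, medium libraries at 20.7, 12, 10.9 and 11.7 CPM, and large libraries at 32.1, 68.1, 70.9 and 82.4 CPM. Early and medium libraries overlapped, and large libraries 2 to 4 stood above all of them. Large library 1 rests on 2 UMIs and is not shown to lie above the others. The Ear2 sums of 7.67, 13.1 and 76.0 CPM gave a large-to-early ratio of 9.91-fold (7.81 to 12.7). Ear1, the near-identical relative of Ear2, ran beside it at 4.62 and 51.4 CPM in the early and large stages.

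Mrc1 encodes the mannose receptor CD206, the usual surface marker of alternatively activated and perivascular macrophages. Its early libraries held 130, 148, 152 and 147 CPM, its medium libraries 43.8, 83.4, 90.1 and 70.9 CPM, and its large libraries 32.1, 185, 157 and 189 CPM. Medium libraries were below the early ones, and large libraries lay on both sides of them, the lowest again the 17-cell library. The sums of 148, 75.4 and 173 CPM put the large stage 1.17-fold above the early stage (1.08 to 1.27), a difference within the spread of the libraries. Cd38, an ectoenzyme that consumes NAD, had early libraries at 19.3, 9.46, 8.66 and 13.5 CPM and medium libraries at 23.8, 24.7, 28.7 and 13 CPM. Its large libraries held 0, 56.8, 37.3 and 48.2 CPM, where the 0 stands for no UMI among 62320 and allows up to 48.1 CPM. Apart from that library the large stage was highest, and the summed ratio to the early stage was 4.00-fold (3.19 to 5.03).

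The receptor genes had other courses. Il4ra encodes the chain shared by the interleukin-4 and interleukin-13 receptors. Its libraries spanned 107 to 124 CPM early, 83.0 to 107 CPM medium and 48.1 to 166 CPM large, where the lowest came from 3 UMIs of library 1. Il4ra was thus present at 115, 99.4 and 153 CPM in the sums, and the large-to-early ratio was 1.33-fold (1.22 to 1.45). Il13ra1 encodes the second chain of the type II receptor, which also binds interleukin-13. Its early libraries held 91.2, 81.3, 99.4 and 75.3 CPM, its medium libraries 38.2, 27.3, 35.1 and 38.1 CPM, and its large libraries 0, 26.5, 35.7 and 43.7 CPM. All early libraries lay above all others, and medium and large libraries overlapped. Il13ra1 was 2.18-fold lower in the large than in the early sum (1.88 to 2.55). Within run 3 the log2 ratio of Il13ra1 was -0.98. Emilin1, a glycoprotein of elastic fibers, had 3.12 to 8.40 CPM in early libraries, 16.6 to 30.0 CPM in medium and 46.6 to 160 CPM in large libraries. The 3 ranges of Emilin1 did not overlap, and its large-to-early ratio was 7.97-fold (6.13 to 10.5).

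**Figure D1:**
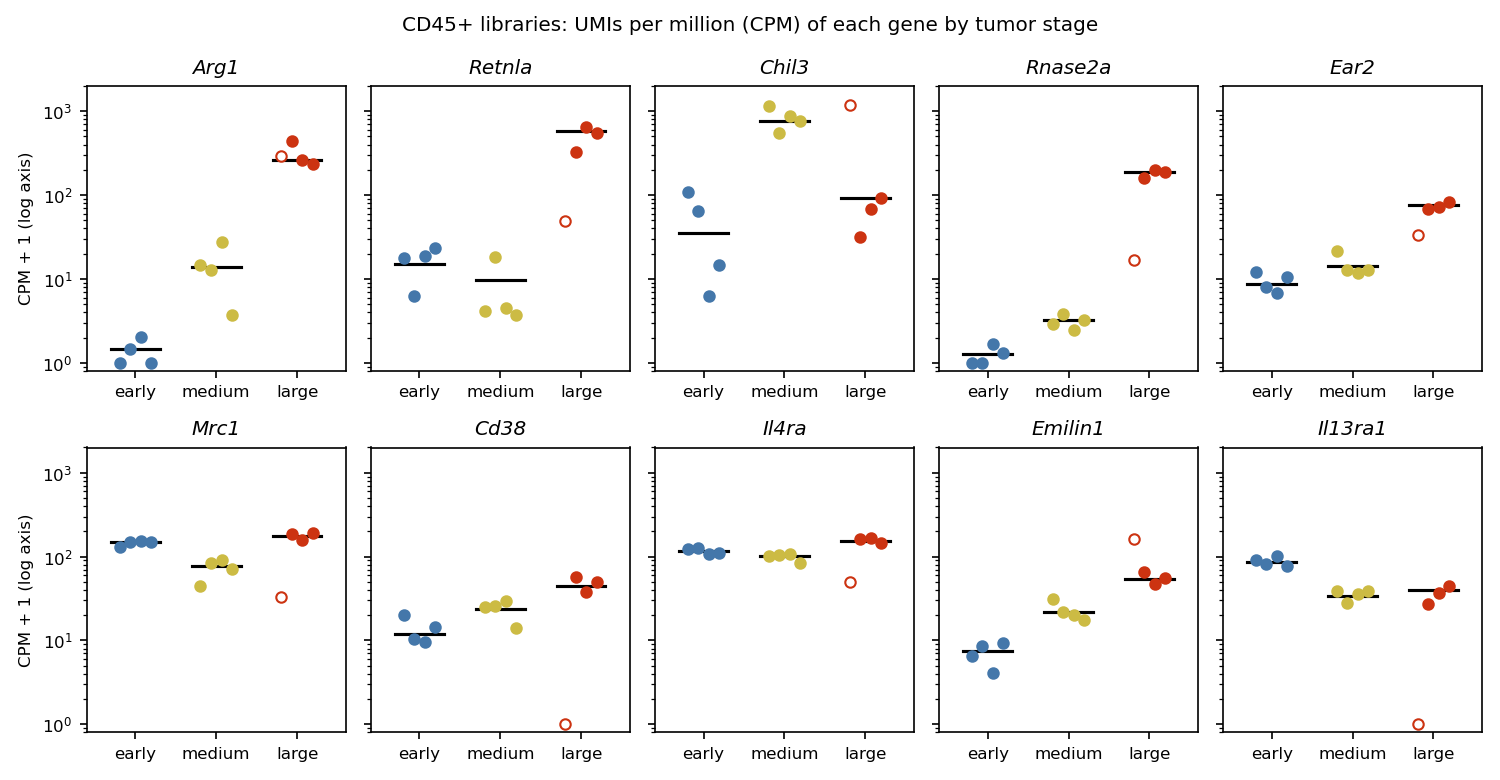
CPM of each of the 10 genes in the 12 CD45+ libraries on a log axis, grouped by stage, with each point a technical library. Arg1 lies at 236 to 439 CPM in large libraries and at most 1.04 CPM in early ones, while Il4ra lies between 48.1 and 166 CPM throughout.

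A ratio of at least 2-fold, with at least 10 UMIs over both stages, was used to count genes. Over the CD45+ sort, 7 of the 10 genes were higher in the large than in the early stage and 1, Il13ra1, was lower, where 14.8% of all 19097 genes with enough UMIs passed the same limit in either direction. Nearest to the limit were Il13ra1 (log2 ratio -1.12) and Chil3 (1.40) inside it and Il4ra (0.41) outside it. From early to medium, 5 of the 10 were higher and 1 lower, with 24% of all genes past the limit. From medium to large, 6 were higher and 1, Chil3, was lower, with 17.8% of all genes past it. The genes were listed for such differences, so nothing is read from their share against all genes. Leaving out cells with recurring barcodes gave 7 higher and 1 lower for large over early. Within runs 1, 2 and 3 the genes past the limit numbered 8, 7 and 7.

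Levels were also summed within classes, where the makeup of the sort does not enter. The macrophage or monocyte-like class held 268 early, 1690 medium and 719 large cells, with median depths of 2189, 1979 and 2790 UMIs. Different clusters filled it: cluster 4, led by Gpnmb, Igf1 and Apoc1, had 111 of the early and 582 of the large cells, and cluster 3, led by Cxcl9 and Ifi44l, had 1037 of the medium cells. Arg1 had 0 UMIs in this class in the early stage, 20.4 CPM in the medium stage and 559 CPM (529 to 591) in the large stage. The large level was 122 times the floor of 3 UMIs over the early group, and the exact lower limit of the ratio was 99.2-fold. The large libraries of the class held 416, 740, 562 and 535 CPM, and the medium libraries 29.8, 19.5, 34.3 and 3.36 CPM. Arg1 UMIs lay in 14 of 1690 medium cells and in 234 of 719 large cells, so the large-stage level was not that of a few cells.

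Retnla and Rnase2a had the same form in the macrophage or monocyte-like class. Retnla was at 0, 6.87 and 616 CPM, in the large stage 135 times the floor, with an exact lower limit of 109-fold. Of its 27 medium UMIs, 26 lay in a single cell. Rnase2a was at 0, 2.29 and 374 CPM, in the large stage 81.8 times the floor, with an exact lower limit of 66.4-fold. The Retnla ratio was much smaller under 4 alternatives that changed the cells included or their classes. Its log2 value was 9.66 with a prior of 0.5 UMIs, and 2.13 with every deposited cell, 2.24 with doublets kept, 2.32 with classes set cell by cell and 2.38 at a Leiden resolution of 0.5. Cd38 was at 1.53 CPM from 1 UMI, then 16.5 and 70.8 CPM, a ratio of 46.4-fold with a counting interval of 8.21 to 1845. Emilin1 was at 15.3, 18.1 and 83.2 CPM (5.45-fold, 2.90 to 11.6), and Ear2 at 44.2, 17.3 and 138 CPM (3.11-fold, 2.12 to 4.72).

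Mrc1 in the macrophage or monocyte-like class was at 113, 50.9 and 211 CPM, a ratio of 1.87-fold (1.46 to 2.42) that stayed under the limit. With classes set cell by cell the log2 ratio of Mrc1 turned from 0.89 to -1.12. Chil3 was at 67.1, 50.1 and 113 CPM (1.69-fold) and Il4ra at 93.1, 121 and 162 CPM (1.75-fold). Il13ra1, at 61.0, 38.9 and 19.0 CPM, was 3.21-fold lower in the large stage (2.03 to 5.05). In all, 6 of the 10 genes were higher and 1 lower in this class, where 20.9% of 12564 genes passed the limit. From early to medium, 3 of 9 genes with enough UMIs were higher (Arg1, Retnla and Cd38) and 2 lower (Ear2 and Mrc1), with 19.3% of all genes past the limit. Leaving out the cycling cluster, led by Cdca2, Cenpe and Mki67, gave 7 higher and 1 lower for large over early.

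The clusters within the class differed from each other in the large stage. Arg1 reached 3243 CPM in cluster 8, led by Ear6, Ly6i and Sirpb1c, whose 25 large cells also held Chil3 at 792 CPM, Mrc1 at 852 CPM and Retnla at 538 CPM. In the larger cluster 4, Arg1 stood at 534 CPM, Retnla at 698 CPM and Rnase2a at 428 CPM. In the cycling cluster, Arg1 was at 242 CPM, Retnla at 275 CPM and Chil3 at 2.72 CPM from 1 UMI. In the medium stage Arg1 was at 121 CPM in cluster 8 and at 2.24 CPM in cluster 3, which held 1037 of the 1690 medium cells of the class. Within cluster 4 alone, Arg1 had no early UMI and stood at 39.3 CPM in medium and 534 CPM in large cells, so the order of the stages was the same inside that cluster.

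Border or perivascular macrophage-like cells (226 early, 120 medium and 64 large) had the highest Retnla and Mrc1 of the myeloid classes in the large stage. Retnla was at 58.1, 227 and 8963 CPM (8493 to 9452), a large-to-early ratio of 154-fold (106 to 233). Early library 2 held 22 of the 28 early UMIs, in 1 cell, and without it the ratio was 465-fold (213 to 1270). The large value came from libraries 3 and 4, with 10892 and 8146 CPM, and 10 of the 64 cells held 94.2% of the UMIs. Mrc1 was high at every stage, at 2777, 1815 and 2441 CPM, and its level was 1.14-fold lower in the large than in the early stage, which was small beside the spread from 1876 to 2851 CPM between the large libraries. Rnase2a in these cells was at 6.22, 11.7 and 763 CPM, the first from 3 UMIs, which gave a ratio of 123-fold with a counting interval of 41.0 to 604. Arg1 had no early UMI, then 153 and 296 CPM, in the large stage 47.6 times the floor, with an exact lower limit of 37.1-fold. Cd38 was at 135, 278 and 230 CPM and Il4ra at 251, 313 and 454 CPM, in both cases the highest myeloid levels in each stage. Of 9 genes with enough UMIs, 5 were higher by at least 2-fold in the large stage and none was lower, with 27% of all genes past the limit. Emilin1, 1 of these 5 with 6 large UMIs, stood at 1.04-fold without large library 4.

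Dendritic-like cells (70, 180 and 53) held Retnla at 581 CPM in the early stage, from 122 UMIs in 3 cells, at 0 in the medium stage and at 2094 CPM in the large stage. Ear2 was highest of all myeloid classes there in the early and large stages, at 200, 16.0 and 538 CPM, and Mrc1 stood at 390, 61.7 and 342 CPM. The 22 Arg1 UMIs of the large stage (160 CPM) lay in 1 cell, as did the 21 Chil3 UMIs. Of 8 genes with enough UMIs, 6 were at least 2-fold higher in the large stage, with 25.6% of all genes past the limit. Il4ra, 1 of these 6, stood at 1.50-fold without large library 3. Neutrophil-like cells held Chil3 at 2310 CPM in 51 early cells, 8177 CPM in 247 medium cells and 2717 CPM in 27 large cells. Chil3 was 3.54-fold higher in medium than in early neutrophil-like cells (3.17 to 3.97). Of the 325 early UMIs 256 came from library 2, with 146 in 1 cell, and the ratio was 8.33-fold without that library (6.57 to 10.7). Over the same stages these cells went from 1.00% to 6.22% of the CD45+ sort, and at 1.28% in the large stage the class was too small for a ratio. From early to medium, 1 of 6 genes was higher and 1 lower there, with 37.3% of all genes past the limit. Mast or basophil-like cells, outside the myeloid classes, held medium Chil3 at 1742 CPM, from 767 UMIs in 29 of 79 cells. These were 10.3% of the medium Chil3 UMIs of the sort, beside 85.8% in neutrophil-like cells.

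Microglia-like cells (3999, 788 and 991) carried the receptor genes and little else of the group. Il4ra was at 116, 112 and 142 CPM and Il13ra1 at 98.5, 75.1 and 74.0 CPM, so Il13ra1 was 1.33-fold lower in large than in early microglia-like cells (1.11 to 1.60). The microglia-like share of the sort, 78.5% early and 47.1% large, was lower beside the lower Il13ra1 of the whole sort, and its part in that value was not tested. Arg1 was at 0.609, 0 and 16.2 CPM, Retnla at 0.487, 0 and 9.13 CPM, and Mrc1 at 7.67, 14.2 and 9.63 CPM. In large-stage T cell-like cells, which are not known for Retnla or Rnase2a, Rnase2a was at 12.7 CPM (3 UMIs) and Retnla at 8.48 CPM (2 UMIs). At 6.59 and 9.13 CPM, the large-stage levels of Rnase2a and Retnla in microglia-like cells were near those, and no expression is read from them. Arg1 was at 50.9 CPM in the T cell-like class, and all 12 of its UMIs lay in 1 cell. That cell belonged to a cluster of 39 large-stage cells led by Il13. In microglia-like cells the 32 large-stage Arg1 UMIs lay in 17 of 991 cells. Of 8 genes, 5 passed the 2-fold limit upward in large microglia-like cells, with 11.2% of all genes past it. Retnla and Rnase2a were among these 5, and the other 3 were Arg1, Cd38 and Emilin1. Cd38 rested on 4 early and 8 large UMIs (8.33-fold, 2.23 to 37.8), so little is read from it.

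The 10 genes differed in the classes their large-stage UMIs came from. Macrophage or monocyte-like cells held most UMIs of Arg1 (91.1%), Rnase2a (83.2%), Ear2 (76.2%), Cd38 (69.0%) and Emilin1 (66.9%). Retnla was split between them (44.8%), border or perivascular macrophage-like cells (43.8%) and dendritic-like cells (9.26%), and Mrc1 likewise between the first (51.3%) and the second (39.98%). Chil3 was divided between macrophage or monocyte-like (52.9%) and neutrophil-like cells (42.1%). Il13ra1 came mainly from microglia-like cells (70.2%), and Il4ra from macrophage or monocyte-like (44.8%) and microglia-like cells (34.3%).

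**Figure D2:**
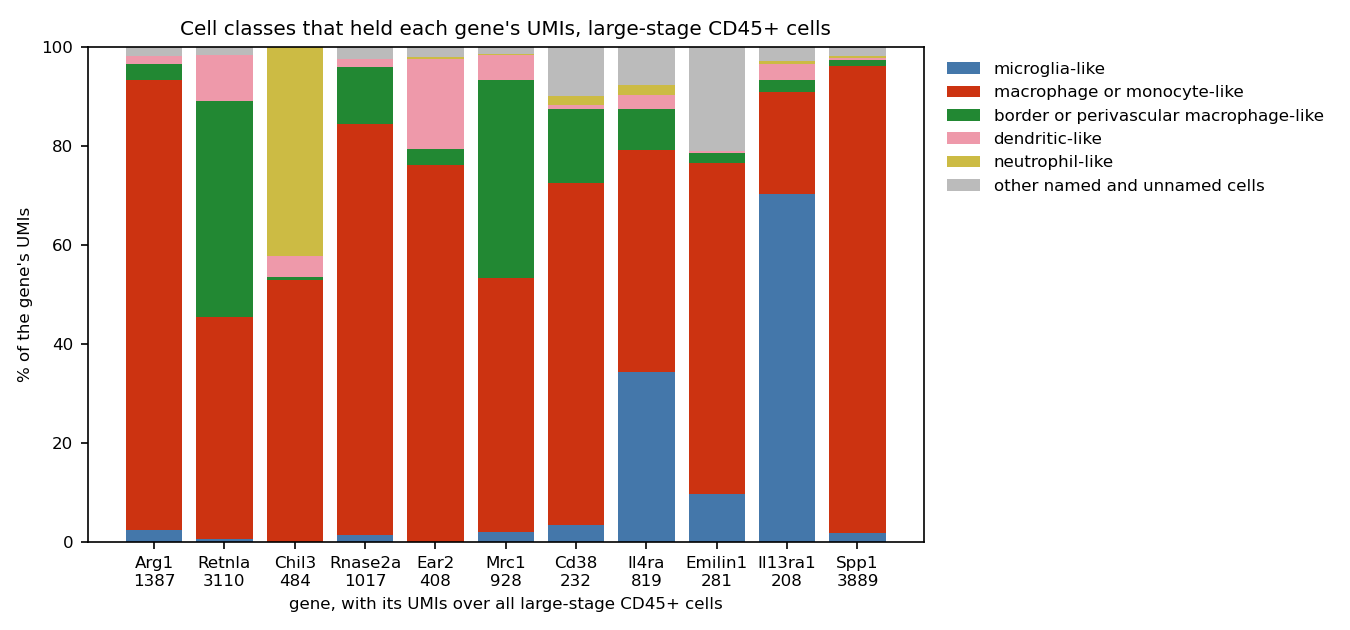
Share of each gene's UMIs in the large-stage CD45+ sort that came from each class, in percent, with Spp1 beside the 10 genes. Arg1 and Spp1 come almost wholly from macrophage or monocyte-like cells (91.1% and 94.4%), and Il13ra1 mainly from microglia-like cells (70.2%).

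Spp1 encodes osteopontin, a secreted phosphoprotein of tumor macrophages. In the large stage 94.4% of its CD45+ UMIs lay in macrophage or monocyte-like cells, at 1626 CPM. To compare cells at equal depth, each cell was thinned to 1000 UMIs and called Spp1-positive with at least 1 Spp1 UMI. By this measure 236 of 713 cells of the class were positive (33.1%, exact interval 29.7 to 36.7, and 44.6% before thinning). In microglia-like cells the share was 1.60% and in T cell-like cells 2.06%, with median depths of 2790, 1797 and 1745 UMIs for the 3 classes. Activated microglia and activated T cells are both known to make osteopontin, so these shares are given as values and not as a background level. Shallower cells were left out, 6, 51 and 6 of them.

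Arg1 hardly differed between Spp1-positive and Spp1-negative cells of the class, at 674 and 585 CPM (1.15-fold, 0.942 to 1.40). Its libraries disagreed, with log2 ratios of 0.72 in library 3 and -0.74 in library 4. Cd38 was higher in positive cells, at 127 against 67.1 CPM (1.89-fold, 1.11 to 3.22), in each of libraries 2, 3 and 4. Retnla, at 674 against 870 CPM, Mrc1, at 178 against 277 CPM, and Il4ra, at 153 against 170 CPM, were lower in positive cells by less than 2-fold. Rnase2a stood at 280 against 553 CPM, with log2 ratios of -2.47, -0.43 and -1.28 in libraries 2, 3 and 4, and Ear2 at 84.7 against 170 CPM. With the prior of 0.5 UMIs, Chil3 was the only gene past 2-fold, at 42.4 against 254 CPM (log2 ratio -2.52), from 10 and 121 UMIs. Its log2 ratio was -1.29 in library 3 and -4.51 in library 4. Before thinning, Chil3 lay in only 28 of 719 large cells of the class, and 1 cell held 47 of its 256 UMIs. Its contrast therefore rests on few cells. Emilin1 stood at 76.3 against 111 CPM, and Il13ra1, with 11 UMIs in all, was too sparse to place. Without the prior, Ear2 at 0.499-fold and Il13ra1 at 0.449-fold would pass the limit as well. Against this 1 of 10, 15% of all 7924 genes with enough UMIs passed the limit. The count was not stable: with another thinning seed 4 genes passed it, all lower in positive cells, and with at least 3 Spp1 UMIs asked for 6 did.

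Within cluster 4 alone, 205 positive and 372 negative cells gave log2 ratios of -0.27 for Arg1, -4.55 for Chil3, -1.28 for Rnase2a, -1.09 for Ear2, -1.24 for Mrc1 and 0.76 for Cd38. The Chil3 value came from 2 and 106 UMIs. Over all myeloid-like cells of the large stage the values were others. This set took in 940 microglia-like cells, of which 15 were Spp1-positive. Arg1 was then at 690 against 196 CPM (3.52-fold) and Cd38 at 123 against 32.7 CPM (3.75-fold), and Il13ra1 at 11.5 against 57.5 CPM. These 3 of the 10 genes passed the limit, beside 23.3% of all 11471 genes with enough UMIs.

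The sorts could be compared over 3 tumor samples, with the sample as a block, and this contrast was not among the values that chose the genes, although they were listed for CD45+ levels, so its direction is not independent evidence. Retnla, Chil3, Rnase2a and Ear2 had at most 1 UMI in any CD45- stage, and Arg1 at most 4 (0.495 CPM). Cd38 was at 6.68, 17.4 and 25.3 CPM and Emilin1 at 12.1, 23.1 and 109 CPM in early, medium and large CD45- cells, the latter above the CD45+ level of 52.4 CPM in the large stage. The edgeR quasi-likelihood test called 46.2% of 18428 genes. Arg1 and Rnase2a, with 5 and 3 UMIs in the early CD45+ sort, did not pass its filter. Retnla, Chil3, Ear2 and Mrc1 passed it through the CD45+ sort alone, so they had to differ, and neither their p-values nor a count of the genes that passed is given. Mrc1 had 30, 7 and 0 UMIs in early, medium and large CD45- cells (3.71, 1.07 and 0 CPM), 27 of them in 1 cell. The log2 difference of Il4ra was 4.41 (SE 0.37, adjusted p = 1.93e-04 in edgeR) and that of Il13ra1 3.05 (SE 0.28, adjusted p = 1.86e-04 in edgeR), each higher in 3 of 3 samples. Cd38 differed by 0.98 (SE 0.21, edgeR adjusted p = 0.00656), with an edgeR adjusted p of 0.0623 without the large sample and 0.196 without the block. Emilin1 differed by -0.33 (SE 0.25, edgeR adjusted p = 0.327), and without TMM factors it was called lower (-0.69, edgeR adjusted p = 0.0456).

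Among 33 other genes of the pathway, 31 had enough UMIs in the CD45+ sort, and 11 were at least 2-fold higher and 2 lower in the large than in the early stage, where 14.8% of all genes passed the limit in either direction. Their median log2 ratio was 0.64, beside 0.08 over all genes with enough UMIs. The list was made with earlier results of these data known, so nothing is read from its share or median against all genes. Both ligands were higher: Il13 was at 0.832 and 55.0 CPM (9 and 295 UMIs) and Il4 at 0.832 and 13.6 CPM (9 and 73 UMIs). Early library 3 held 8 of the 9 early Il13 UMIs, 6 of them in 1 cell, and 5 of the 9 early Il4 UMIs. In T cell-like cells Il13 was at 12, 0 and 1124 CPM in the early, medium and large stages, and Il4 at 5.16, 3.90 and 221 CPM. Of the 265 Il13 UMIs of large T cell-like cells, 260 lay in the cluster of 39 cells led by Il13, 1700061F12Rik, Il5 and Areg, whose level is part of what defined the cluster. That cluster took the T cell name from 9 of the 10 T cell markers, none of which was among its 10 leading genes, and Il13, Il5 and Areg are also known from type 2 innate lymphoid cells, so the kind of cell is uncertain. The receptor chain Il2rg and the 4 signaling genes Jak1, Jak3, Tyk2 and Stat6 were all under 2-fold, with Stat6 at 55.6 and 50.1 CPM.

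Of 6 regulators, Pparg alone passed the limit, with 2 and 11 UMIs. Of 11 targets, 6 were higher, among them Clec7a, the β-glucan receptor dectin-1, at 34.0 and 265 CPM, the scavenger receptor Msr1 at 9.89 and 42.9 CPM, and Pdcd1lg2, which encodes PD-L2, at 0.277 (3 UMIs) and 14.2 CPM. The chemokine genes Ccl17 and Ccl24 were at 5.18 and 28.1 CPM and at 19.6 and 41.7 CPM, and Chil4 at 1.66 and 3.54 CPM. Chil4 was just past the limit, at 2.13-fold (1.06 to 4.30) from 18 early and 19 large UMIs. Of the latter, 3 lay in the 17-cell library and 13 in library 4, so its call is not firm. Chil4 stood at 56.5 CPM in the medium stage. Ccl24 was near the limit as well. Of its 224 large-stage UMIs, 1 cell of library 3 held 35 and 1 cell of library 4 held 27, so its call is not firm. Of the 151 large-stage Ccl17 UMIs, 140 came from library 3. Libraries 1, 2 and 4 held 0, 11.4 and 3.01 CPM, from 0, 3 and 8 UMIs, so the Ccl17 call rests on library 3. In the early stage 1 cell held 25 of the 56 Ccl17 UMIs. Ccl22 (25.5 and 8.20 CPM) and Cd163 (23.9 and 9.50 CPM), a scavenger receptor that marks border macrophages, were lower. Of the 44 large Ccl22 UMIs, 19 lay in 1 cell of library 2. In arginine metabolism, the transporter gene Slc7a2 was at 3.61 and 21.1 CPM and the citrulline-using enzyme gene Ass1 at 5.83 and 14.7 CPM, while Arg2, Slc7a1, Asl, Odc1 and Oat were under 2-fold. Of the 79 large Ass1 UMIs, 51 came from library 4. Large libraries 1 to 4 held Ass1 at 16.0, 7.57, 10.5 and 19.2 CPM, the first 2 from 1 and 2 UMIs. Early library 1 held 8.29 CPM from 3 UMIs, so the Ass1 call is not firm. Ass1 stood at 27.7 CPM in the medium stage.

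The genes most like each member were sought over 14 sums of myeloid class and stage, among all genes with at least 100 UMIs. The sums share libraries and held 137505 to 8210788 UMIs. They are the levels known when the 10 genes were chosen, and no chance level was set, so the names are a description only. Reads may have been split between Ear2 and Ear1 and between Chil3 and Chil4. Ear2 was most like its near-identical relative Ear1 (Pearson r = 0.996), and Chil3 most like Chil4 (0.964) and then Trem1 (0.940) and Rac2 (0.920). Mrc1 was most like Dab2 (0.940), Strip2 and Serpinb8, and Cd38 like Xrcc3 (0.927), Pf4 and Bmp2. Arg1 was most like Cct8 (0.903), Uqcr10 and Coro1c, and its correlation with Rnase2a was 0.855, which placed Arg1 as the third for Rnase2a after Snhg17 (0.901) and Tomm6. Retnla was most like Ddx41 (0.919), Slc25a51 and Gga1. Il4ra was most like 2610507B11Rik (0.897), Srebf1 and Fyco1, Emilin1 like Dtnbp1 (0.868), Dnase2a and Igf1, and Il13ra1 like Marf1 (0.888), Ier5 and Zbtb20.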

How the data were processed

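The deposited table holds UMI counts per gene and barcode for 3 sequencing runs, which the authors made with RapMap in bcbio-nextgen against GRCm38 (Ensembl v94) plus transgenes, calling empty droplets away. Ambient RNA and doublets are said to have been removed, but whether before deposit is not given in the sources used here. Stage and sort were taken from the deposited library annotation. Normal brain samples were not analysed here.

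Of 20811 deposited cells, those with at least 500 UMIs, at least 500 genes and at most 20% mitochondrial UMIs were kept (17894), and Scrublet scores in scanpy 1.11.5 then marked 139 doublets, leaving 17755. In the CD45+ sort they marked 48 cells (0.428%), so few that doublets may remain there; whether they had been removed before was not tested. CD45+ cells were clustered (2000 variable genes, 40 components, 20 neighbors, Leiden resolution 1, leidenalg 0.10.2) without the 10 genes and Spp1, giving 28 clusters, of which 3 (261 cells) stayed unnamed. A cluster took a class name from at least 3 of the class's fixed markers. CPM is the summed UMI count per 1000000 UMIs of the same cells, with exact Poisson intervals at 95%, and log2 ratios carry a prior of 0.5 counts. Stages hold 1 tumor sample each and were not tested. Sorts were tested on counts summed per tumor sample with edgeR 4.0.16 (TMM, quasi-likelihood, sample as block, Benjamini-Hochberg over all genes). The block rests on both sorts coming from the same tumor sample. Every one of the 10 genes is named. Pathway genes at least 2-fold apart are named, as are the 3 genes most like each gene with at least 500 UMIs. The genes, lists and markers were chosen with earlier results of these data known. Promoters came from RefSeq (GRCm38.p6) and positions from GENCODE. Transcripts were aligned with Biopython 1.88. Alternatives changed filters, doublets, resolution, class assignment, prior, thinning, runs and libraries, and the edgeR step was tested on simulated data. One allele of the tumor model is not reported here.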

Additional observations from a re-analysis of the deposited data

Results flagged for a closer look

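Retnla in library 2 of the medium CD45+ sort stood at 17.4 CPM (67 UMIs), while the other 3 libraries of that stage held 2.69 to 3.46 CPM. Ear2 in library 1 of the medium CD45+ sort stood at 20.7 CPM (33 UMIs) beside 10.9 to 12 CPM in the others. Both gaps passed Dixon's limit for 4 values, and these were 2 of 20 sets of libraries examined, where chance passes about 1 in 20. The values are technical libraries of 1 tumor sample, and the genes were chosen with these levels known, so nothing is read from the limit. The 67 Retnla UMIs lay in 5 cells, with 34 in 1 of them. Il4ra had a large-to-early log2 ratio of 1.46 in dendritic-like cells, 0.67 without large library 3, and of -1.20 in the CD45- sort. The directions were opposite, each value rests on 1 tumor sample per stage, and the difference was not tested. In the CD45- sort the summed microglia markers stood at 1439.5 CPM early and 302 CPM large, and Ptprc at 16.0 and 3.61 CPM. The part of such cells in the CD45- value of Il4ra was not tested.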

How the results depend on the processing

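The count of genes past 2-fold in the CD45+ sort (8 of 10, large over early) was 7 or 8 under its 20 alternatives, and 7 to 9 in the macrophage or monocyte-like class (7) under 23. Leaving out the cells with the highest 5% of doublet scores changed neither by more than 1.5 times. The count between Spp1-positive and Spp1-negative cells (1) was 3 with every deposited cell, with doublets kept, within run 2, at a Leiden resolution of 0.5 and over all myeloid-like cells. It was 2 within run 3 and at a resolution of 2, 4 with a second thinning seed, 5 with classes set cell by cell, 6 with at least 3 Spp1 UMIs, and 1 to 3 when single libraries were left out. The cause was not tested. Between sorts, Cd38 was not called without the tumor sample as replicate block (log2 difference 0.99, edgeR adjusted p = 0.196), and the calls of Il4ra and Il13ra1 held without it. Without TMM factors the log2 difference of Cd38 was 0.62. No value past its limit changed sign, and that of Mrc1 in the macrophage or monocyte-like class, under the limit, did so with classes set cell by cell (-1.12). With 1 tumor sample per stage, intervals cover counting error and not differences between tumors, and the large stage holds the fewest CD45+ cells, 64 of them border or perivascular macrophage-like. Cells with recurring barcodes, left out after the data were seen, changed no count, and the class ratios without single libraries were also added then.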
